A study of Mus musculus with 36 samples.

Results

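Circular RNAs (circRNAs) made from zinc finger protein genes were described in the hippocampus and frontal cortex of the mouse over the light-dark cycle. A circle was counted when both of its ends lay on the same strand inside a protein-coding gene whose symbol starts with Zfp, Zbtb or Zmy, and when it was found in 2 or more replicates of a time point. The genes Zfp609, Zfp644 and Zbtb20 were left out. Of 6656 circRNAs kept in the series, 114 met this description, 105 of them in hippocampus and 77 in frontal cortex. They came from 49 host genes, out of 447 genes with such names in the annotation and 2584 protein-coding host genes in the series. The rule for members used gene names and detection, and it did not use the size of any difference between tissues or times. The members were, however, chosen with earlier results of these data known.

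The animals were untreated adult male mice, C57BL/6 in the labels and C57BL6/N in the study's methods, held on a cycle with lights on by day. Tissue was taken at zeitgeber times (ZT) 1, 5 and 9 in the light phase and ZT13, 17 and 21 in the dark phase, in hours after lights on. Each tissue had 3 samples at each time, each called a biological replicate by the labels, so that 18 samples per tissue were compared. Different animals were used at different times, and the labels do not say which hippocampus and cortex samples shared a mouse.

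Zinc finger proteins hold short loops of protein that fold around a zinc ion. In the large C2H2 group, each finger is held by a pair of cysteines and a pair of histidines, and arrays of fingers read DNA or RNA sequence. Zbtb proteins join such fingers to a BTB domain that recruits repressors, Zmym proteins carry MYM-type fingers, and Zmynd proteins carry a MYND finger that binds partner proteins. In many C2H2 genes the whole finger array is encoded by the last exon, which usually stays out of circles because it has no donor splice site of its own. CircRNAs arise when a donor splice site is joined back to an acceptor site upstream. They lack free ends, are long-lived and are abundant in neurons. A circular read is a read that crosses this back-splice junction, so its number does not grow with the length of the circle.

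The most abundant host genes made several circles from few splice sites, which can be read from the junctions themselves. In the sequences below, 15 bases on each side of the junction are shown 5′ to 3′ along the host strand. Small letters are the last bases of the circle and capitals are its first bases, after the back-splice. The first 4 come from Zfp148, which encodes a Krüppel-type transcription factor that binds GC-rich promoters, and the other 5 from Zfp827, whose protein recruits the NuRD complex to telomeric chromatin. They are shown because the same side of a junction returns in different circles.
circZfp148-1: gcactcaatgtccctGATAGAAGAGAAGAA
circZfp148-4: cgctctcctgcaaaaGATAGAAGAGAAGAA
circZfp148-3: agaagatccataccgGATAGAAGAGAAGAA
circZfp148-2: agaagatccataccgATCCTTACAATAAAT
circZfp827-1: tcatgaaactctcagATGTTAGTAGGCAGG
circZfp827-3: tcatgaagctgtcagATGTTAGTAGGCAGG
circZfp827-7: tcatgaaactctcagCTGCAAACCAGAAGG
circZfp827-2: gagtgtctgctccagCGGAAAGCTACAAGG
circZfp827-5: gcggacaaccaccagCGGAAAGCTACAAGG

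Circles are numbered within their host by their total reads. In Zfp148, circles 1, 4 and 3 began at the same acceptor of exon 2 (capitals) and ended at 3 different donors. Circles 3 and 2 shared the last donor (small letters) and differed in where they began. In Zfp827, circles 1 and 3 shared a start, as did circles 2 and 5, and circles 1 and 7 shared an end.

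A different kind of junction was found where the last end of the circle lay inside the terminal exon. For 5 of these circles the letters around the last end are given, with the last 12 bases of the circle in small letters and the next 8 bases of the same exon in capitals. They are shown because each capital stretch begins with GT, the letters of a donor splice site, at a place where the annotation has none.
circZfp62-1: ggatccatacagGTGAGAAA
circZfp62-2: cctatgaatgtgGTGAGTGT
circZfp101-1: agccgtatacatGTAAGCAT
circZfp955a-1: ggagtttcatatGTAAGTAT
circZfp871-1: atgcacactctgGTGAGAAT

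Circular reads per sample ranged from 6754 to 73252 in hippocampus (median 21923) and from 8107 to 34803 in frontal cortex (median 20301). The hippocampus ZT13 replicate 1 sample was the shallowest and the hippocampus ZT1 replicate 3 sample the deepest. Tissue labels were set against marker genes, by the share of their circles among kept circular reads. The hippocampus list (3 of 4 genes with circles) took a median of 0.221% in hippocampus and 0.0511% in cortex, and the cortex list (2 of 4, with no circle from Rorb or Cux2) 0.053% and 0.106%. No circle was kept from any of the 6 astrocyte or 6 microglia genes, and the oligodendrocyte list (3 of 8 genes) had medians of 0.00921% and 0%. The neuron list (5 of 6) ran from 1.45% to 2.03% in hippocampus and from 1.9% to 2.3% in cortex, and 3 of its 4 tested host genes were lower in hippocampus. Its part in the tissue differences given here was not tested. In bulk tissue, fewer cells of a type and less RNA per cell cannot be told apart.

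The zinc finger genes counted here made up 1.9% ± 0.149 of kept circular reads in hippocampus (SD, n = 18, range 1.68% to 2.15%). In frontal cortex they made up 1.75% ± 0.182 (SD, n = 18, range 1.21% to 2.07%), and the ranges overlapped. The difference between the shares was not tested. Zinc finger genes with other names, and Zfp609, Zfp644 and Zbtb20, are not in these shares. Among kept circRNAs the counted circles were 1.91% of 5505 in hippocampus and 1.61% of 4790 in cortex. Single samples held between 25 and 90 of the circles in hippocampus (median 51.5) and between 17 and 54 in cortex (median 44.5).

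Most circles were rare. Summed over all 36 samples, the median circle had 33 reads (range 6 to 2190), beside a median of 31 for all kept circles in protein-coding genes. There were 32 circles with fewer than 20 reads, 31 with 100 or more and 2 with 1000 or more. The Zfp genes proper gave 93 circles from 38 hosts and 11244 reads. The 3 Zmym hosts gave 7 circles and 521 reads, the 2 Zmynd hosts 6 circles and 493 reads, the 5 Zbtb hosts 6 circles and 444 reads, and Zfpm2, which encodes a cofactor of GATA factors, 2 circles and 82 reads. A single circle was kept from 23 hosts, 2 circles from 15 and 3 or more from 11.

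Most of the reads came from Zfp148, Zfp532 and Zfp827, which together gave 53.9% of all zinc finger circular reads. Zfp148 gave 3005 reads (23.5%) in 6 circles, Zfp532 2106 reads (16.5%) in 5 circles and Zfp827 1778 reads (13.9%) in 13 circles. The human counterpart of Zfp532 is a known fusion partner of NUTM1 in NUT carcinoma. The next hosts, Zmym4 with 489 reads, Zmynd11 with 437 and Zfp62 with 417, were several-fold lower.

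**Figure D1:**
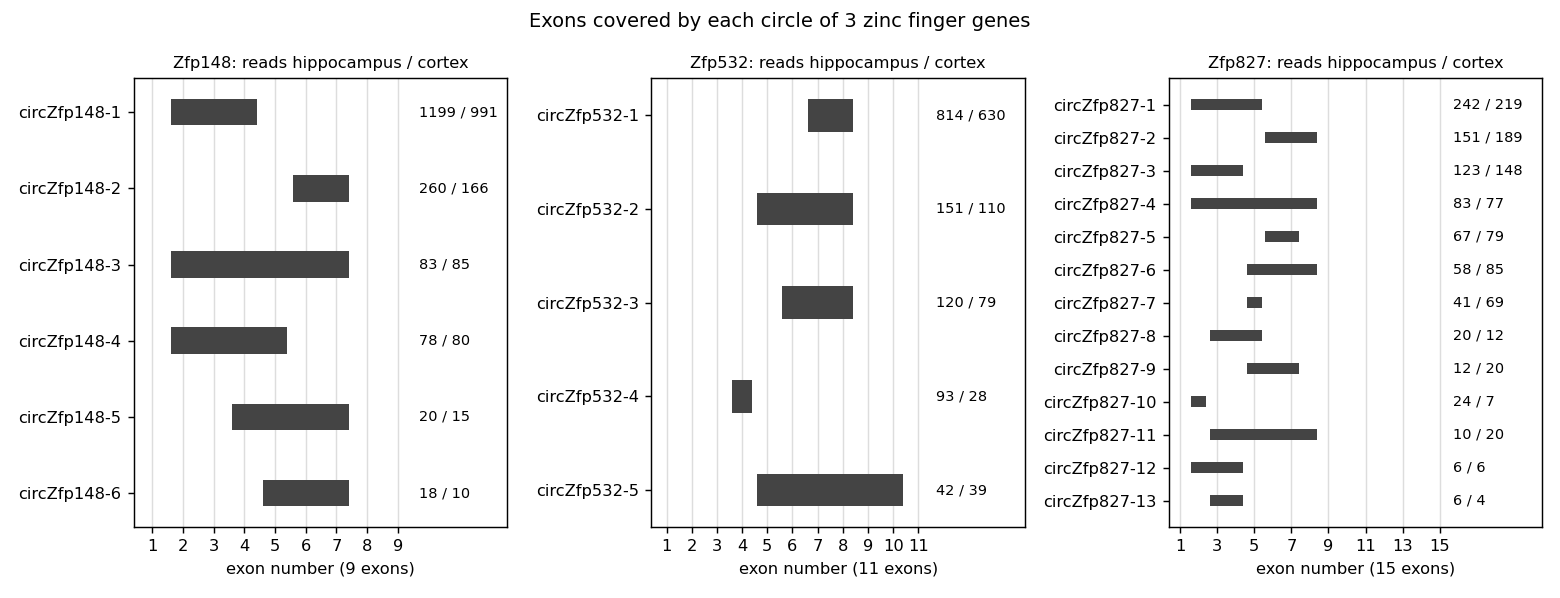
Exons covered by each kept circle of Zfp148, Zfp532 and Zfp827; the x axis is the exon number in the annotated transcript, each bar runs from the first to the last exon of 1 circle, and the numbers on the right are its reads in hippocampus and frontal cortex. One circle holds most reads in Zfp148 (1199 and 991) and Zfp532 (814 and 630), while the 13 circles of Zfp827 share the reads more evenly, and no bar reaches the last exon.

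The circle with the most reads was circZfp148-1 at chr16:33421321-33434974 (GRCm38, + strand), made of exons 2 to 4 of 9 of Zfp148, with a spliced length of 567 nt. It had 1199 reads in hippocampus and 991 in cortex, and was found in 18 of 18 samples of each tissue. It holds the start codon and none of the 4 finger motifs of its host transcript. It carried 72.3% of the circular reads of Zfp148 in hippocampus and 73.6% in cortex. The circle made of exons 6 and 7, circZfp148-2 (chr16:33466855-33468183, 208 nt), had 260 and 166 reads and holds 2 of the 4 motifs. The 6 circles of the gene used 4 first ends and 3 last ends.

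In Zfp532 the leading circle, circZfp532-1 (chr18:65651560-65656632, + strand), was made of exons 7 and 8 of 11, with 445 nt and 3 of 10 finger motifs. It had 814 reads in hippocampus and 630 in cortex, which was 66.7% and 71.1% of the circular reads of its host. Exon 8 was also the last exon of circZfp532-2, which begins at exon 5 (151 and 110 reads), and circZfp532-3, which begins at exon 6 (120 and 79 reads). A separate circle, circZfp532-4, was exon 4 alone, 2351 nt with the start codon and no finger motif. It had 93 reads in 16 hippocampus samples and 28 reads in 6 cortex samples. The filter on low counts removed it. Without the filter, edgeR called it higher in hippocampus (log2 difference 2.06, SE 0.51, adjusted p = 0.00278), as 1 of 4 of the 114 circles called there, beside 5.2% of all circRNAs.

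Zfp827 had no dominant circle. Its 13 circles were made from 4 first ends and 6 last ends within exons 2 to 8 of 15. The leading one, circZfp827-1 (chr8:79060250-79092066, + strand, exons 2 to 5, 1929 nt), had 242 reads in hippocampus and 219 in cortex. It was 28.7% of the host's circular reads in hippocampus and 23.4% in cortex. The second, circZfp827-2 (chr8:79118175-79136663, exons 6 to 8, 402 nt), lay wholly downstream of it and had 151 and 189 reads. The fourth, circZfp827-4, ran from exon 2 to exon 8 and so covered the exons of both, with 83 and 77 reads. No finger motif lay in circles that began at exon 5 or 6, whereas circles that ran from exon 2 or 3 through exon 4 held 3 of the 9.

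Of the other hosts with many circles, Zfp638, which encodes a nuclear nucleic acid binding protein, had 7 circles and 396 reads. Its leading circle was exon 2 of 27 alone (circZfp638-1, 1513 nt, with the start codon), with 95 reads in hippocampus and 115 in cortex. Zfp608, a paralogue of Zfp609, had 7 circles and 209 reads, led by circZfp608-1 (exons 3 to 9 of 10) with 75 and 24 reads. In Zmym4, circZmym4-1 (chr4:126923064-126926023, - strand, exons 3 to 5 of 30) had 213 reads in hippocampus and 167 in cortex.

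The structure of the circles was set beside all 6261 kept circles with both ends in a protein-coding gene, as a description without a test. Both ends lay on annotated splice sites of 1 transcript in 93 of 114 zinc finger circles (81.6%) and in 87.6% of all. Of these 93, the start codon was held by 30 (32.3%, against 16.7% of all), and 39 began at exon 2 (41.9%, against 33.3%). Single-exon circles were 10.8% of the zinc finger circles and 5.3% of all. The zinc finger circles had fewer exons but were longer, with a median of 3 exons and 853 nt beside 4 exons and 571 nt. The spliced length was a multiple of 3 in 41.9% and 38.4%.

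**Figure D2:**
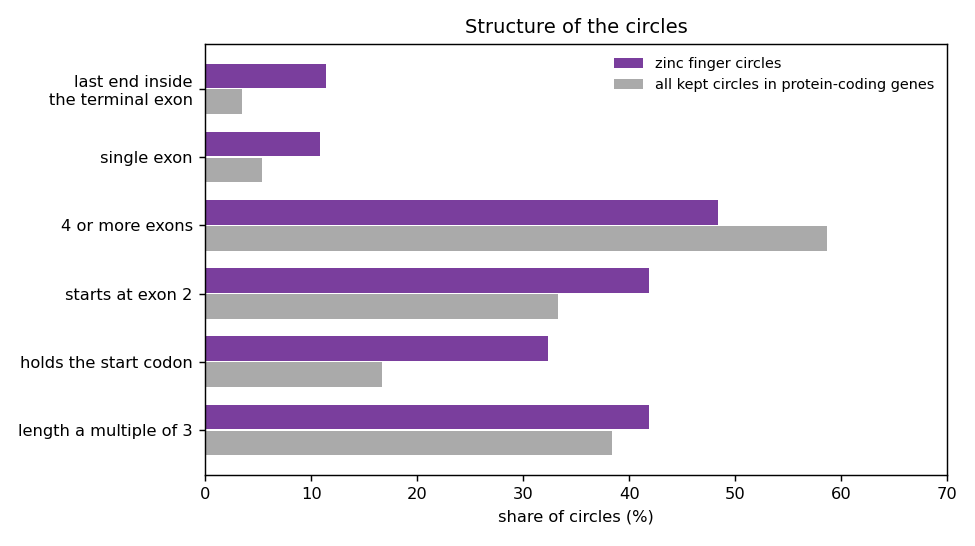
Share of circles, in percent on the x axis, with each structural feature among the zinc finger circles (purple) and all kept circles in protein-coding genes (grey); the first feature is out of 114 and 6261 circles and the others are out of 93 and up to 5486 circles with both ends on splice sites. The zinc finger circles have the larger share for ends inside the terminal exon, single exons, starts at exon 2 and start codons, and the smaller share for 4 or more exons.

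Ends inside the terminal exon were found in 13 of 114 zinc finger circles (11.4%) and in 216 of all 6261 (3.45%). The 13 circles came from 10 hosts and held 1104 reads, 8.64% of the zinc finger total. The first end was an annotated acceptor, and the last end was followed by GT in all 13. The detection method accepts only junctions with splice letters, so this GT was a condition of being found. Finger motifs were present in 12 of the 13, and 4 circles lay wholly in the terminal exon.

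The largest of them, circZfp62-1 (chr11:49212695-49215945, + strand), ran from exon 2 into exon 5 of 5 and held the start codon and 6 of the 25 motifs of its host, a gene with a long tandem array of fingers. It had 184 reads in hippocampus and 190 in cortex. A shorter form with the same start, circZfp62-2, ended 147 bases earlier in the same exon, held 4 motifs and had 18 and 25 reads. The circle circZfp101-1 (chr17:33381199-33382586, - strand) was cut wholly from exon 4 of 4, held 9 of 12 motifs and had 137 reads in hippocampus and 97 in cortex. The circle circZfp955a-1 (chr17:33242199-33244134, - strand) had 95 and 66 reads, and circZfp871-1 (chr17:32773505-32777527, - strand), which held 15 of 15 motifs, had 50 and 30. Finger arrays of different genes can be near copies. Only exact matches were sought, at the first or last 40 bases of the circle, so near copies were not counted. Of 111 circles that could be searched, 3 matched a transcript of another gene (circZbtb11-1, circZbtb11-2 and circZfp964-1), and their host is uncertain. The matches of circZbtb11-1 and circZbtb11-2 were at the first end, and circZbtb11-1 holds no finger motif.

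C2H2 finger motifs were sought in the translated host transcripts as C, 2 to 4 residues, C, 12 residues, H, 3 to 5 residues, H. A host transcript with such motifs was available for 97 circles from 43 hosts. Of these circles, 34 (35.1%) covered no motif, 51 (52.6%) covered some and 12 (12.4%) covered all of them. Circles without a motif held 42.8% of the reads of the 97 circles. Without circZfp148-1 this share was 29.6%.

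Time of day was examined in each tissue with edgeR's quasi-likelihood test on the counts, with Benjamini-Hochberg adjustment over all circRNAs that passed a filter on low counts. This left 13 zinc finger circles of 582 circRNAs tested in hippocampus and 11 of 518 in frontal cortex. None of the zinc finger circles passed an adjusted p of 0.05 for a difference among the 6 times, for dark against light, or for a 24-hour cosine rhythm, in either tissue. The background was as low, with 0% of all tested circRNAs called in hippocampus in each of these tests and, in cortex, 0.193% for time and 0% for phase and rhythm. At an unadjusted p under 0.05 the count of zinc finger circles was also 0 in each test, beside 3.26%, 4.81% and 2.23% of all circRNAs for time, phase and rhythm in hippocampus and 2.32%, 3.09% and 4.83% in cortex. DESeq2 called none of them, and of all circRNAs 0.172% for rhythm in hippocampus, 0.193% for rhythm in cortex and 0% in its other tests. Without the filter, 10 of 105 circles passed the edgeR rhythm test in hippocampus (all circRNAs 11.2%) and 6 of 77 in cortex (10.9%), where most circles have no read in most samples. Counts were simulated with 200 changed circRNAs in each tissue and a fixed spread between samples (dispersion 0.05). The test found 92% of 2-fold phase differences in hippocampus and 90.5% in cortex. It found 44% and 56% of 2-fold rhythms, and 23% and 24.5% of 2-fold differences at 1 of the times. Of 4-fold differences at 1 of the times it found 88% and 90.5%, so most 2-fold changes at a single time would have been missed at this depth. With 200 changed circRNAs the adjustment was less strict than in the data, where few or none were called. These shares are therefore too high for a setting with few changed circles.

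The abundant circles were the most precisely measured. Levels are given as normalised reads. These are counts scaled to a common total of 12160 reads per sample on the 710 circRNAs tested between tissues. Reads on the other circRNAs are not in this total. In hippocampus circZfp148-1 lay between 54.5 and 76 in the 9 light-phase samples (median 60) and between 49 and 80 in the 9 dark-phase samples (median 63.9). The ranges overlapped almost wholly, and the dark-phase level differed by 0.04 on the log2 scale (SE 0.12, edgeR adjusted p = 1). In cortex the light-phase samples lay between 39.5 and 65.3 (median 54.5) and the dark-phase samples between 57.6 and 76.5 (median 63.6). The dark phase was 0.26 higher on the log2 scale (SE 0.13, unadjusted p = 0.0615, edgeR adjusted p = 0.993), with overlapping ranges. This was the smallest p of any zinc finger circle for the phase in cortex.

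For circZfp532-1 in cortex the light phase ran from 16.3 to 45.6 (median 35.8) and the dark phase from 33.6 to 45.7 (median 42.8), a difference of 0.21 (SE 0.17, edgeR adjusted p = 0.993). In hippocampus the medians were 43.3 and 40.9. The circle circZfp704-1 (chr3:9470892-9474602, exons 3 and 4 of 9 of Zfp704) had the smallest p for the phase in hippocampus. Its light-phase samples lay between 4.22 and 10.9 (median 7.99) and its dark-phase samples between 2.79 and 11.5 (median 4.8). The difference was -0.45 (SE 0.32, edgeR adjusted p = 1), and the next smallest p was that of circZfp62-1 (-0.36, SE 0.32, edgeR adjusted p = 1). In cortex the medians of circZfp704-1 ran the other way, 7.79 in light and 9.19 in dark. The difference between tissues in its phase effect did not pass the test (-0.59, SE 0.39, edgeR adjusted p = 0.97).

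The circle circZfp62-1 had the smallest p among the 6 times in cortex (unadjusted p = 0.0847, edgeR adjusted p = 0.996) and the smallest for a rhythm in hippocampus (unadjusted p = 0.0924, edgeR adjusted p = 1). In cortex its 3 samples at ZT5 were 16.7, 27.1 and 12.8 normalised reads, and those at ZT9 were 5.49, 7.25 and 0. All 3 values at ZT5 were above all 3 at ZT9. These were the times with the highest and lowest mean in cortex (18.9 and 4.25). The 0 at ZT9 was replicate 3, the shallowest cortex sample. In hippocampus the samples at ZT5 were 11.1, 14.4 and 13.5 and those at ZT9 13.3, 13.2 and 9.84, so the groups overlapped there. The fitted hippocampus rhythm had a log2 peak-to-trough size of 0.97 with its peak at ZT 8.2.

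**Figure D3:**
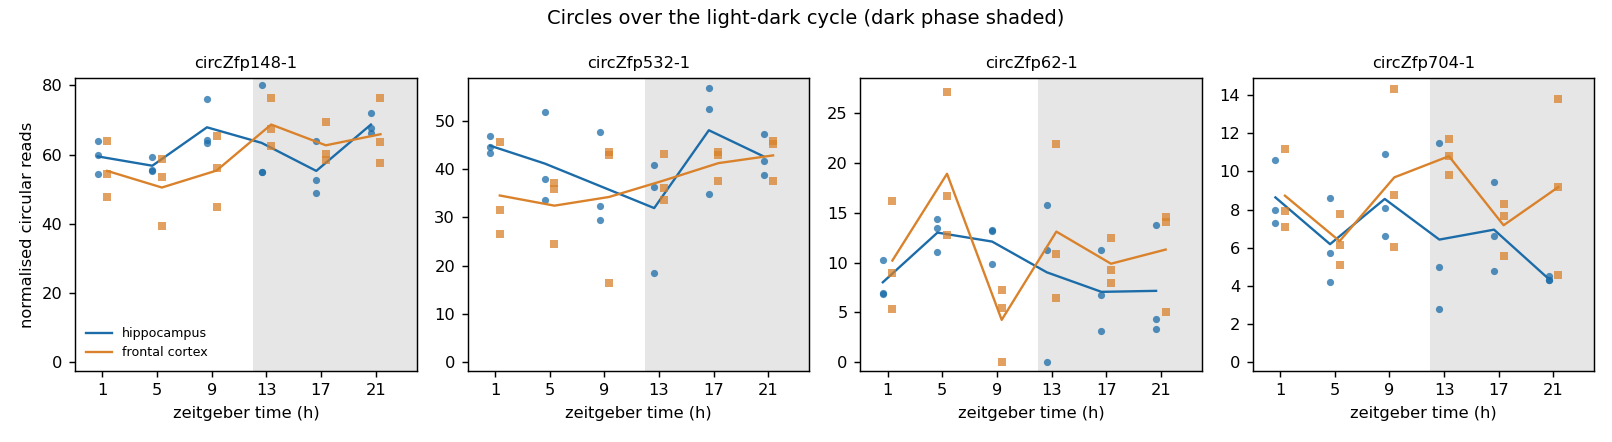
Normalised circular reads (y axis) of 4 circles by zeitgeber time in hours (x axis) in hippocampus (blue circles) and frontal cortex (orange squares); points are the 3 samples of a time, lines join their means, and grey marks the dark phase. For circZfp148-1 all samples of both tissues lie between 39.5 and 80, and neither tissue passed the test for a difference among the 6 times.

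The phase medians over all tested zinc finger circles were 0.02 in hippocampus (13 circles, all 582 circRNAs -0.02) and 0.16 in cortex (11 circles, all 518 circRNAs 0.02), on the log2 scale with dark over light. In cortex 8 of the 11 were above 0, as were 54.2% of all tested circRNAs. The 2 smallest p-values for each of the other tests belonged to circZbtb16-1 and circZfp292-1 for time in hippocampus (edgeR adjusted p = 0.999 for both), circZfp148-2 after circZfp62-1 for time in cortex (edgeR adjusted p = 0.996), circZfp532-1 after circZfp62-1 for rhythm in hippocampus (edgeR adjusted p = 1) and circZfp148-1 and circZfp148-2 for rhythm in cortex (edgeR adjusted p = 0.916 for both). Zbtb16 encodes the repressor PLZF.

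Between the tissues, few of the zinc finger circles passed the test. Of 710 circRNAs tested over all 36 samples, 30.6% passed the edgeR test for tissue, and of the 17 zinc finger circles 1 did. At an unadjusted p under 0.05 there were 3 of 17, beside 39.7% of all. The median size of the difference in either direction was 0.28 on the log2 scale for the 17 circles and 0.34 for all 710, and the median with its sign was 0.03 and 0.02. Zbtb20, a gene of the hippocampus marker list, was left out of these circles by the rule for members, as were Zfp609 and Zfp644. Whether the zinc finger circles differ from the rest in this was not tested.

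The leading circles were close in level between tissues. The 18 hippocampus samples of circZfp148-1 averaged 61.9 ± 8.35 normalised reads (SD) and the 18 cortex samples 59.7 ± 9.83, a log2 difference of 0.06 (SE 0.09, edgeR adjusted p = 0.678) with hippocampus over cortex. For circZfp532-1 the means were 40.8 ± 9.29 and 37.1 ± 8.2 (log2 difference 0.13, SE 0.12, edgeR adjusted p = 0.432). For circZfp148-2 they were 12.7 ± 5.07 and 9.85 ± 4.17, a difference that missed the threshold (0.42, SE 0.19, edgeR adjusted p = 0.0913).

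The circle that passed was circZfp532-3, and its difference lay in some times and not in others. In hippocampus it was found in 18 of 18 samples at 6.27 ± 3.19 normalised reads (SD), and in cortex in 13 of 18 at 4.5 ± 3.6. All 3 cortex samples at ZT5 and 2 of 3 at ZT1 had no recorded read. At ZT21 the cortex samples were 8.23, 9.89 and 10 and the hippocampus samples 2.25, 12.9 and 3.45. The log2 difference averaged over the times was 1.31 (SE 0.37, edgeR adjusted p = 0.00684). With tissue and time as separate terms it was 0.60 and the call was lost (edgeR adjusted p = 0.166). The first value weights the 6 times equally, times without reads included. In that second model circZfp827-2 was the 1 circle of 17 called, beside 30.3% of all circRNAs.

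The dark-minus-light difference of circZfp532-3 was also the one that differed most between tissues among the 17 circles, by -2.58 on the log2 scale with hippocampus over cortex (SE 0.74, unadjusted p = 0.00147, edgeR adjusted p = 0.93). With all 3 cortex samples at ZT5 at 0 reads its size was poorly determined, and it was -3.70 without the frontal cortex ZT1 replicate 3 sample. No zinc finger circle passed the adjusted test for this difference, nor did any circRNA (0% of 710). At an unadjusted p under 0.05 the count was 1 of 17, beside 4.23% of all, and DESeq2 called 0.141% of all circRNAs. In simulated counts with 200 changed circRNAs, the edgeR test found 39.5% of 2-fold differences of this kind. That share is too high for a setting with few changed circles.

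Of the circles of Zfp827, 3 were tested between the tissues. For circZfp827-2 the means were 7.58 ± 2.65 in hippocampus and 11.1 ± 4.41 in cortex (log2 difference -0.51, SE 0.20, edgeR adjusted p = 0.0549). For circZfp827-3 they were 6.23 ± 2.84 and 9.02 ± 4.49 (-0.48, SE 0.26, edgeR adjusted p = 0.17), and for circZfp827-1 12.5 ± 4.5 and 13.6 ± 5.38 (-0.11, SE 0.21, edgeR adjusted p = 0.737). None passed, but circZfp827-2 did so with tissue and time as separate terms (-0.54, SE 0.20, edgeR adjusted p = 0.0396). DESeq2 called circZfp827-2 and circZfp532-3, 2 of the 17 (all circRNAs 33.7%).

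To gain reads, all kept circles of a host gene were summed, which left 693 host genes tested, 15 of them zinc finger genes. Here 31.6% of all host genes passed for tissue, and 4 of the 15 did, 3 higher in hippocampus (17.5% of all hosts) and 1 lower (14.1% of all hosts). The median size of the difference was 0.21 for the 15 hosts and 0.32 for all. DESeq2 and the model with separate terms each called 3 of the 15 (all hosts 32.5% and 31.2%), without Zmynd11. Without the filter on low counts 3 of the 49 hosts passed (all hosts 11.6%), Zfp608, Zfp827 and Zfpm2 (log2 difference 3.04, edgeR adjusted p = 0.000788). At an unadjusted p under 0.05 there were 4 of 15 (all hosts 38.8%). Sums are given as normalised reads on a scale of 13997 reads per sample over the 693 tested host genes.

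Zfp827 was lower in hippocampus. Its hippocampus samples ran from 26.9 to 71.6 normalised reads (median 43.8, mean 44 ± 8.89 SD, n = 18) and its cortex samples from 38.6 to 85.2 (median 54.3, mean 57.8 ± 12.3, n = 18). The ranges overlapped, but the cortex mean was above the hippocampus mean at each of the 6 times. The log2 difference was -0.40 (SE 0.10, edgeR adjusted p = 0.0016), and it stayed between -0.45 and -0.35 and past the threshold in all 36 fits that left out 1 sample.

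Zfp608 was higher in hippocampus. Its hippocampus samples ran from 0 to 15.7 normalised reads (median 6.37, mean 7.6 ± 4.69 SD, n = 18, 158 reads in all) and its cortex samples from 0 to 9.44 (median 3.19, mean 3.08 ± 2.97, n = 18, 51 reads in all). It was found in 17 of 18 hippocampus and 11 of 18 cortex samples. All 3 cortex samples at ZT13 had no recorded read, where the hippocampus samples were 10.6, 9.44 and 6.44. The log2 difference was 1.91 (SE 0.46, edgeR adjusted p = 0.00108), and 1.32 with tissue and time as separate terms (edgeR adjusted p = 0.00699). All 36 fits without 1 sample kept it past the threshold, between 1.63 and 2.49.

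The other 2 calls were less firm. Zfp532 was higher in hippocampus, with means of 63.3 ± 11.7 and 51.9 ± 12.6 normalised reads (SD, n = 18 each), ranges of 47.4 to 93.6 and 22.7 to 68.3, and a log2 difference of 0.28 (SE 0.10, edgeR adjusted p = 0.0349). The call was lost in 15 of the 36 fits without 1 sample, and the difference was 0.20 without the frontal cortex ZT9 replicate 3 sample. Zmynd11, which encodes a chromatin reader of a methylated histone, had means of 13.3 ± 3.47 and 9.72 ± 4.21 (log2 difference 0.47, SE 0.19, edgeR adjusted p = 0.0456), and its call was lost in 27 of the 36. Zfp148, the largest host, did not pass (85.8 ± 9.98 and 81.5 ± 14.1, log2 difference 0.08, SE 0.08, edgeR adjusted p = 0.462).

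**Figure D4:**
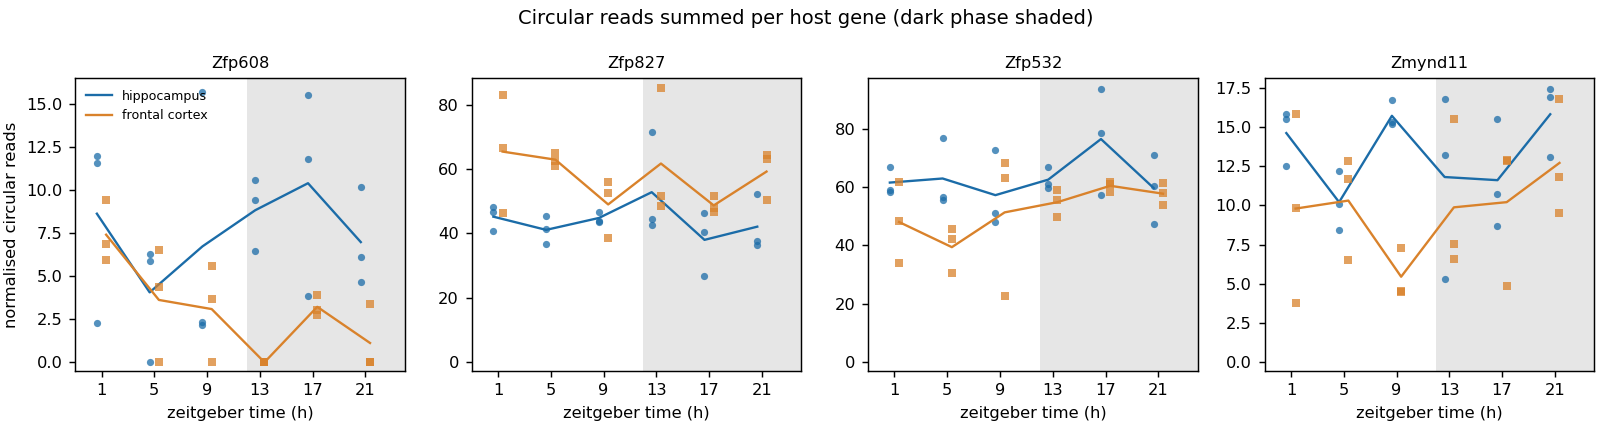
Normalised circular reads summed per host gene (y axis) by zeitgeber time in hours (x axis) for the 4 host genes that passed the tissue test; points are samples in hippocampus (blue circles) and frontal cortex (orange squares), lines join means of 3, and grey marks the dark phase. The cortex line of Zfp827 is above the hippocampus line at every time, and the cortex samples of Zfp608 are at 0 at ZT13.

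**Figure D5:**
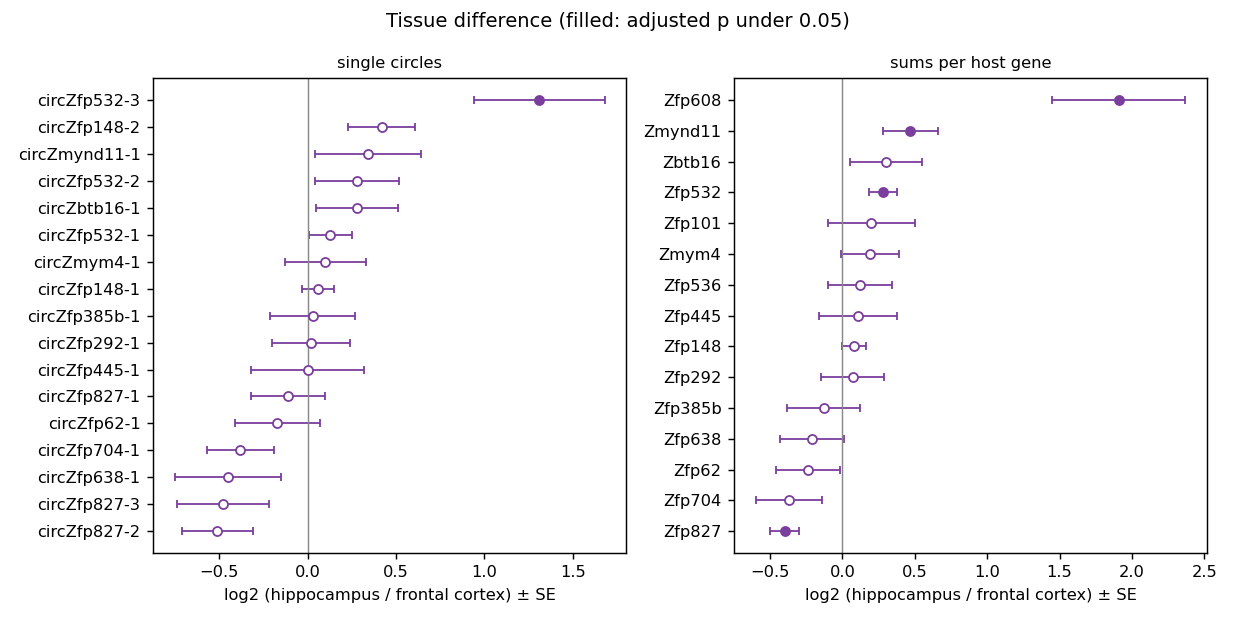
Log2 difference between hippocampus and frontal cortex with its standard error (x axis) for the 17 tested zinc finger circles (left) and the 15 tested host genes (right); positive values are higher in hippocampus and filled points passed an adjusted p of 0.05. Only circZfp532-3 is filled on the left, and Zfp608, Zmynd11, Zfp532 and Zfp827 on the right.

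No zinc finger host passed the adjusted test for a tissue difference in the effect of the phase, nor did any of the 693 hosts (0%), and DESeq2 called none. At an unadjusted p under 0.05 there were 2 of 15, beside 4.76% of all hosts. In simulated counts with 200 changed host genes, the edgeR test found 50.5% of 2-fold differences of this kind. That share is too high for a setting with few changed hosts. For Zfp608 the dark-minus-light difference was 2.88 higher in hippocampus on the log2 scale (SE 0.95, unadjusted p = 0.00396, edgeR adjusted p = 0.505), with all 3 cortex samples at ZT13 at 0 reads, and it was 4.07 without the frontal cortex ZT21 replicate 2 sample. For Zmym4 it was lower by -0.94 (SE 0.40, unadjusted p = 0.023, edgeR adjusted p = 0.753). The cortex samples of Zmym4 at ZT13 were 18.6, 19.7 and 16.2 normalised reads and the hippocampus samples 0, 11.3 and 7.73, with no overlap. The sample at 0 was replicate 1, the shallowest of the series. At every other time the hippocampus mean was above the cortex mean, as at ZT9 (18.9 and 8.08).

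Circles kept in a single tissue had few reads. Of the 114 circles, 68 (59.6%) were kept in both tissues, 37 (32.5%) in hippocampus only and 9 (7.89%) in frontal cortex only, beside 55.4%, 27.7% and 16.9% of all kept circles in protein-coding genes. Only 6 of the 37 had no read at all in cortex, and none of the 9 had no read in hippocampus. The circles kept in hippocampus only had a median of 10 reads there (range 4 to 24). Without the deepest sample, hippocampus ZT1 replicate 3, 86 circles were kept in hippocampus in place of 105, and with all samples thinned to 6754 reads 65 were kept in hippocampus and 57 in cortex.

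Among these, circZfp423-1 (chr8:87773567-87904548, exons 2 to 5 of 8) was kept in cortex only, with 25 reads there and 14 in hippocampus. Zfp423 is a C2H2 factor required for cerebellar development. The circles circZfp445-2 (24 reads in hippocampus, 11 in cortex), circZfp109-1 (23 and 8), circZfp280d-1 (19 and 15) and circZfp280d-2 (17 and 14) were kept in hippocampus only, as was circZfp827-10 (24 and 7), which had as many reads in all as circZfp109-1 and circZfp280d-2. Zfp445 protects imprinted methylation, and its other circle, circZfp445-1, was found in most samples of both tissues (125 and 103 reads). The largest gap of this kind in reads was in Zfpm2, where circZfpm2-2 had 18 reads in 6 hippocampus samples and 0 in cortex. The smallest count above 0 is 2, so these zeros do not exclude a single read in a sample. This circle was named after its values were seen.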

How the data were processed

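Total RNA depleted of ribosomal RNA was sequenced from 36 samples, 3 for each of 2 tissues at 6 times. The deposited counts are back-splice junction reads per circRNA, which the authors obtained with BWA alignment to GRCm38 and CIRI2, and the smallest count above 0 in the tables is 2. There is 1 table per tissue, and 1 column of per-sample values that matched no sample was not used. Per-sample circular reads ranged from 6754 to 73252. The members and lists were chosen with earlier results of these data known.

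Hosts, exons and sequences came from GENCODE M21 (GRCm38). Sequences were read from its transcripts. Counts were tested with edgeR 4.0.16 (quasi-likelihood test, TMM scaling, filterByExpr) in R 4.3.3, in each tissue over the 18 samples of that tissue and, between tissues, over 12 groups of 36 samples, with Benjamini-Hochberg adjustment at 0.05. The phase test compared the mean of the dark times with the mean of the light times, and the rhythm test fitted a cosine of 24 h. Host sums left out 91 circRNAs that lay in more than 1 gene. Alternatives were DESeq2 1.42.0, 2 other scalings, no filter, the replicate number as a block, leaving out each sample, and other detection rules. Scripts were tested on simulated data with 200 changed circRNAs or genes.

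Named were the 5 circles with the most reads in each tissue, the 5 hosts with the most circles, every call or otherwise the 2 smallest p-values per test, and the 5 circles with the most reads kept in 1 tissue, with a sixth that tied. Others were named to show junction types, hosts of high or uncertain counts, or lost calls. P-values set a difference against the spread between samples. As no count of 1 occurs, a count of 0 does not exclude a single read in that sample.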

Additional observations from a re-analysis of the deposited data

Results flagged for a closer look

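In 36 groups of 9 samples (light or dark phase of a tissue), the highest or lowest sample of the share of zinc finger reads and of the named circles was set against its nearest neighbour. 4 samples stood apart, and chance gives about 1 in 20 groups. The share was 1.21% in frontal cortex ZT9 replicate 3, where the next lowest light-phase sample had 1.59%. This was the shallowest cortex sample, with 8107 circular reads. For circZfp148-1, hippocampus ZT9 replicate 2 had 76 normalised reads and the next highest light-phase sample 64.2. For circZfp148-2, hippocampus ZT5 replicate 1 had 24.6 normalised reads, with 15.6 in the next. The same circle was at 0 in hippocampus ZT13 replicate 1, the shallowest sample of the series with 6754 circular reads, where the next lowest dark-phase sample had 10.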

How the results depend on the processing

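No call changed direction under any setting that was run. Differences near 0 that passed no test did change sign when 1 sample was left out, among them the hippocampus phase differences of circZfp148-1 (-0.04 to 0.06) and circZfp532-1 (-0.05 to 0.09) and the tissue differences of the hosts Zfp101 (-0.60 to 0.30) and Zfp445 (-0.78 to 0.21). Without a filter on low counts, 10 of 105 zinc finger circles in hippocampus and 6 of 77 in frontal cortex passed the edgeR rhythm test (all circRNAs 11.2% and 10.9%), and 4 of 114 passed for tissue (all 5.2%): circZfp532-3, circZfp532-4, circZfpm2-1 and circZfp608-1, all higher in hippocampus. Of the host sums, Zfp608, Zfp827 and Zfpm2 then passed (all hosts 11.6%) and Zfp532 was lost (edgeR adjusted p = 0.0593). DESeq2 called 2 circles for tissue, circZfp532-3 and circZfp827-2 (all circRNAs 33.7%). DESeq2 size factors and scaling by each sample's total reads on the tested host genes each left 2 host genes, Zfp608 and Zfp827. Shares over all circRNAs and hosts were not counted for these scalings, the replicate block or the fits without 1 sample. In the edgeR test used above, 30.6% of all circRNAs and 31.6% of all hosts passed for tissue. The model with tissue and time as separate terms, and the counts of kept circles without 1 sample, were chosen after seeing the data.

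Without 1 sample, the count for tissue ran from 1 to 4 circles and from 2 to 4 hosts. With all samples, 30.6% of all circRNAs and 31.6% of all hosts passed. The smallest group has 2 samples when 1 is left out, which lets more circles through the filter. All counts for time, phase, rhythm and the tissue difference in phase ran from 0 to 0. The number kept ran from 86 to 105 in hippocampus and from 70 to 77 in cortex, and the share from 1.88% to 1.91% and from 1.73% to 1.78%. Detection in all 3 replicates left 48 and 42 circles, detection in 1 or more samples 314 and 261, and thinning left 65 in hippocampus. With Zfp609, Zfp644 and Zbtb20 the share was 2.55% and 2.18%.

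Replicate numbers gave no sign of pairing. Deviations of same-numbered samples correlated at a mean r of -0.003 over 45 pairs in hippocampus and -0.011 over 45 in cortex. Across tissues the mean was -0.016 over 18 pairs (range -0.170 to 0.150). With so few reads per circle, these values cannot tell whether samples shared a mouse. With the replicate number as a block, 1 circle and 3 hosts passed for tissue and 0 for time, phase and rhythm. Without the block, 30.6% of all circRNAs and 31.6% of all hosts passed for tissue. Zmynd11 was lost with the block (edgeR adjusted p = 0.0552). Depth limited the tests to 17 of 114 circles.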

Other observations

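Host genes with zinc fingers but other names were listed for comparison. They gave 113 kept circles from 50 hosts. Of 11 circles tested between the tissues, 5 were higher and 1 was lower in hippocampus by the edgeR test used above, after adjustment over all circRNAs (all circRNAs 30.6%), and of 14 host sums 7 were higher and 3 were lower (all hosts 31.6%). Glis3, a Krüppel-type factor of the GLI family, was among the hosts higher in hippocampus (log2 difference 3.68, SE 0.24) and Hivep1 among those lower (-1.95, SE 0.38). None of the tested circles passed for time, phase or rhythm in either tissue, 9 in hippocampus and 5 in cortex. Whether these hosts differ between tissues more often than the Zfp, Zbtb and Zmy hosts was not tested.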
